A study of Mus musculus with 18 samples.

Results

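The comparison asked how gene expression differs when the pioneer factor FoxA2 lacks an α-helix, in the embryonic cells that make the most FoxA2. It covers the 6 libraries sorted for high FoxA2 signal, 3 per genotype, of the 18 in the series, and all 24498 genes of the deposited table, without the 5 counter lines; 14711 genes reached a value of 10 in 3 or more of the 18 libraries and were tested. Both genotypes were mouse embryos at embryonic day 7.5 with mixed C57Bl6/J and CD-1 ancestry, homozygous for a knock-in FoxA2 allele fused through a flexible linker to the red fluorescent protein tagRFP. FoxA2-WT-tagRFP (here WT) encodes the whole protein, and FoxA2-ΔHx-tagRFP (here ΔHx) lacks 10 amino acids of the helix; embryos with an untagged allele served only to set the gates. The High gate took cells brighter than any heterozygous cell, the Mid gate cells above autofluorescence and up to the heterozygous maximum, and the Neg gate cells without tagRFP signal. About 10 embryos, male and female together and without their extra-embryonic portion, were pooled per sort, 2500 to 5000 cells gave the RNA, and RNA equal to 1000 cells entered each SMART-Seq2 library. The labels call the 3 libraries of a group biological replicates. They give no number of targeted clones or founders per allele, so a difference between the lines other than the helix cannot be told apart from the deletion.

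FoxA2 is a forkhead transcription factor that can bind its sites in nucleosomal DNA and is required for the node, notochord and definitive endoderm of the gastrulating embryo. In the node it acts above Sonic hedgehog and Noto, and in the endoderm together with its relatives Foxa1 and Foxa3, while visceral endoderm, the outer layer that nourishes the early embryo, also expresses it. The helix removed in ΔHx lies outside the forkhead DNA-binding domain, and the series describes it as needed to switch on target genes.

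The 6 High libraries held 12802568 to 17194136 reads in genes, and 15649 (ΔHx replicate 3) to 17917 (WT replicate 2) genes had a read. All values are normalised read counts, and differences are ΔHx minus WT of log2(value + 1), which understates changes of low genes; the error given with a difference is its standard error. Node markers were high in all 6 libraries: Noto ranged from 1625 to 2896 and Foxj1 from 3824 to 6367, against means of 6.65 and 33.8 in WT Neg cells. Visceral endoderm markers were present at lower levels (Afp 56.9 to 965, against a mean of 3424 in WT Mid), and of the blood markers Hba-x was at 0 in all 6 libraries, Hbb-bh1 had 3 reads in all and Gata1 ranged from 202 to 425. In pooled cells, fewer cells of a type and less RNA per cell cannot be told apart. Embryos were not sexed: Xist measured 4094, 4738 and 2007 in WT and 1535, 1428 and 1836 in ΔHx and the Y-linked Eif2s3y 219, 271 and 293 in WT and 505, 389 and 540.1 in ΔHx, so that the sex mixture and the genotype cannot be told apart.

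In High cells Foxa2 transcripts themselves were at a similar level in both genotypes. They measured 2483, 1742 and 1556 in WT and 1848, 2078 and 2385 in ΔHx, so the groups overlapped, and the difference was 0.15 ± 0.28 (95% interval -0.43 to 0.73, adjusted p = 0.927). The gate itself selects cells by FoxA2-tagRFP signal, so a similar level within it does not check the level of the allele. Foxa2 averaged 768 in WT and 796 in ΔHx in Mid cells (difference -0.03 ± 0.28). In Neg cells it averaged 28.2 in WT and 53.6 in ΔHx (difference 0.95 ± 0.28, adjusted p = 0.405). Counts over the whole gene do not show whether the helix is encoded, so they do not check the identity of the allele. Foxa1 measured 1181, 1047 and 594 in WT and 503, 778 and 627 in ΔHx (difference -0.53 ± 0.53) and Foxa3 222, 314 and 276 in WT and 259, 284 and 176 in ΔHx (difference -0.19 ± 0.31). Neither passed the test, and the libraries of both genes overlapped between genotypes.

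Few genes were called in High cells, and a gene that was not called may still differ. At an adjusted p under 0.05 (limma, two-sided, Benjamini-Hochberg over all tested genes) 9 genes rose, 0.0612% of those tested, and 9 fell, also 0.0612%, together 0.122%. At an unadjusted p under 0.05, 587 genes (3.99%) were higher and 570 (3.87%) lower in ΔHx, of 14711 tested. These shares are the background for the counts in the gene lists below. The 3 ΔHx libraries lay wholly above the WT libraries for 841 genes (5.72%) and wholly below for 765 (5.2%). The median log2 difference of all tested genes was 0.000211. Without WT replicate 2 and ΔHx replicate 3, the libraries with the most and the fewest detected genes, 4 rises and 2 falls were called. A fit of the 6 High libraries alone called 1 rise and 2 falls, or 4 and 3 once the filter was also set on these 6, whereas DESeq2 on all 18 called 37 and 47.

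The largest fall was that of Nr1h5 (chr3:102939658-102964133, GRCm38), the nuclear receptor FXRβ, which in mice binds lanosterol. It measured 243, 75.5 and 91.3 in WT and 0, 0 and 0 in ΔHx: all WT libraries held it, with 389 reads in total, and no ΔHx library had a read. With a floor of 3 reads per library its mean was at least 52.4-fold lower in ΔHx, and the fitted difference was -6.91 ± 0.61 (adjusted p = 1.03e-05). Nr1h5 stayed called with any 1 of the 6 libraries left out (adjusted p at most 0.000139). On the list of bile acid, sterol and lipid receptors (11 tested with Nr1h5, median 0.01) Nr1h5 was the only call. With Nr1h5 counted, 3 of the 11 lay wholly below WT and 1 wholly above, beside 5.2% and 5.72% of all tested genes. The receptor gene Rxrg measured 48.0, 49.1 and 43.4 in WT and 29.8, 20.8 and 33.0 in ΔHx, lower in every ΔHx library (difference -0.75 ± 0.29, adjusted p = 0.526). The liver X receptor gene Nr1h2 measured 762, 713 and 770.2 in WT and 924, 860.3 and 903 in ΔHx, slightly higher in every ΔHx library but not past the threshold (adjusted p = 0.607).

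A further 2 falls were in genes of gut endoderm or epithelia. Nepn (chr10:52388972-52404625) encodes nephrocan, a secreted leucine-rich protein that marks the early gut endoderm. It measured 16.8, 19.1 and 12.4 in WT and 1.75, 0.906 and 0 in ΔHx and did not overlap between genotypes. The 49 reads in WT against 3 in ΔHx give a ratio of 18.4 (95% interval 5.95 to 92.5, counting error only), and the fitted difference was -3.28 ± 0.53 (adjusted p = 0.00865). Nepn was not called without WT replicate 2 or ΔHx replicate 3 (adjusted p up to 0.0839). Gprc5a (chr6:135065651-135084709), an orphan receptor induced by retinoic acid, measured 288, 282 and 142 in WT and 40.3, 84.2 and 33.8 in ΔHx and fell by 2.19 on the log2 scale (adjusted p = 0.00678). Its highest ΔHx library was below its lowest WT library. Gprc5a was not called without WT replicate 2, ΔHx replicate 1 or ΔHx replicate 3 (adjusted p up to 0.0839). In ΔHx replicate 3 Gprc5a and Nepn were each at their lowest, as were most visceral endoderm genes. The part of the endoderm genes' lower level in these falls was not tested.

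The promoters of Nepn and Nr1h5 are shown because these genes fell most among the called genes. Each window runs from 250 bases before to 50 bases after the RefSeq start on GRCm38.p6, in the direction of the gene. Nepn lies at chr10:52391358-52391657 on the plus strand and Nr1h5 at chr3:102964084-102964383 on the minus strand. The Nepn window lies inside the gene span given above. Capitals mark forkhead letters, searched on both strands as TGTTTAC, as its variant TGTTTGC, as the word TATTTAC or as the word TATTTGC.
Nepn: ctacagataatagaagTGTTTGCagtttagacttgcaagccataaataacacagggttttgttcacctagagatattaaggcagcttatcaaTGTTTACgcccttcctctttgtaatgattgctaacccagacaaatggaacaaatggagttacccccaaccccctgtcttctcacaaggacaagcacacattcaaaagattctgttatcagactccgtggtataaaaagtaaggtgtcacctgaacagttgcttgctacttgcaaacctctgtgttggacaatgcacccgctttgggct
Nr1h5: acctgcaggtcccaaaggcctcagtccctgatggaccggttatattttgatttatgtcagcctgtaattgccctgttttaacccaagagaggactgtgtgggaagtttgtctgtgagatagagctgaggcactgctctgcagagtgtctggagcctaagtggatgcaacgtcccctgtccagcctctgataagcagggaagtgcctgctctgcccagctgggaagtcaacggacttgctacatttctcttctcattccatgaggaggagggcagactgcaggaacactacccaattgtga
The Nepn window held 2 matches, starting 234 and 158 bases before the start, and the Nr1h5 window held none. Of 32851 RefSeq promoter windows 13.5% held at least 1 match, and of 11157 tested genes with a window 11.1% did. None of 6 risen genes with a window had one, against 1 of 4 fallen genes. Among genes at an unadjusted p under 0.05 the shares were 11.7% of 445 higher and 14.3% of 428 lower genes. The first was near the 11.1% of tested genes and the second above it, a difference that was not tested. A match describes letters and not a bound site.

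A further 5 falls were smaller and lay in more abundant genes. Extl3 (chr14:65052060-65149855), the glycosyltransferase that starts heparan sulfate chains, measured 1608, 1774 and 1824 in WT and 887, 870.3 and 884 in ΔHx, the ΔHx libraries being almost equal to each other. It fell by 0.98 (SE 0.12, adjusted p = 0.000353) and stayed called with any 1 of the 6 libraries left out (adjusted p at most 0.0051). Zmat3 (chr3:32334792-32366014), an RNA-binding zinc finger protein induced by p53, measured 434, 398 and 380.2 in WT and 203, 242 and 234 in ΔHx (difference -0.83 ± 0.14, adjusted p = 0.0183). Zmat3 was not called without WT replicate 1, WT replicate 2, ΔHx replicate 1 or ΔHx replicate 3 (adjusted p up to 0.112). Haus4 (chr14:54541785-54554616), a subunit of the augmin complex of the spindle, measured 452, 474 and 380.2 in WT and 268, 276 and 233 in ΔHx (difference -0.74 ± 0.14, adjusted p = 0.0449) and was not called without WT replicate 1, WT replicate 2, ΔHx replicate 1, ΔHx replicate 2 or ΔHx replicate 3 (adjusted p up to 0.25). Gnb1 (chr4:155491361-155559269), a G-protein β subunit and the most abundant of the changed genes, measured 4433, 4383 and 4917 in WT and 3087, 2951 and 3206 in ΔHx (difference -0.57 ± 0.11, adjusted p = 0.0356). Gnb1 was not called once any 1 of the 6 libraries was left out (adjusted p 0.0667 to 0.112). The transcribed processed pseudogene Gm1821 (chr14:46084028-46085000) measured 1582, 1795 and 2588 in WT and 854, 924 and 659.7 in ΔHx (difference -1.27 ± 0.20, adjusted p = 0.00678). Reads that aligned both to Gm1821 and elsewhere, such as to a parent gene, were not counted, so its level is uncertain. Gm1821 was not called without ΔHx replicate 3 (adjusted p up to 0.0522). In all 5 genes every ΔHx library lay below every WT library.

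Among the rises, Dll1 (chr17:15367354-15376872), a Notch ligand of the primitive streak and presomitic mesoderm, went from a mean of 696 ± 145 (SD, n = 3) to 1483 ± 165. It measured 862, 589.8 and 637 in WT and 1412, 1365 and 1672 in ΔHx, without overlap, and the difference was 1.10 ± 0.15 (adjusted p = 0.00129). Dll1 stayed called with any 1 of the 6 libraries left out (adjusted p at most 0.022), but not without WT replicate 2 and ΔHx replicate 3 together (adjusted p = 0.145). Other receptors and signalling proteins followed. Tyro3 (chr2:119797733-119818104), a TAM receptor tyrosine kinase for apoptotic-cell ligands, measured 1033, 973 and 948 in WT and 1583, 1348 and 2078 in ΔHx (difference 0.74 ± 0.13, adjusted p = 0.0303). Tyro3 was not called without WT replicate 1, WT replicate 2, WT replicate 3, ΔHx replicate 1 or ΔHx replicate 3 (adjusted p up to 0.151). Lpar2 (chr8:69822429-69831102), a lysophosphatidic acid receptor, measured 421, 413 and 315 in WT and 675, 743 and 599.5 in ΔHx (difference 0.82 ± 0.15, adjusted p = 0.0374). Lpar2 was not called without WT replicate 2, WT replicate 3, ΔHx replicate 1, ΔHx replicate 2 or ΔHx replicate 3 (adjusted p up to 0.124). Tril (chr6:53815468-53820830), an accessory protein of Toll-like receptors, was low and even within each genotype, at 24, 21.8 and 24.8 in WT and 71.0, 65.2 and 70.1 in ΔHx, and differed by 1.51 ± 0.26 (adjusted p = 0.0152). Tril was not called without WT replicate 2, ΔHx replicate 1 or ΔHx replicate 3 (adjusted p up to 0.0839). Reln (chr5:21884454-22344702), the extracellular guidance protein reelin, measured 57.5, 77.4 and 73.6 in WT and 179, 192 and 141 in ΔHx (difference 1.28 ± 0.25, adjusted p = 0.0449). Reln was not called once any 1 of the 6 libraries was left out (adjusted p 0.0543 to 0.169).

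The remaining 4 rises were 2 genes of the cell's machinery, a lipid enzyme and an uncharacterised gene. Hyou1 (chr9:44379490-44392369), a chaperone of the endoplasmic reticulum, measured 1288, 1285 and 1495 in WT and 2768, 2477 and 2290.0 in ΔHx and differed by 0.89 ± 0.10 (adjusted p = 0.000216). Cap1 (chr4:122859047-122886056), which recycles actin monomers, measured 966, 1215 and 1135 in WT and 1955, 1905 and 2104 in ΔHx and differed by 0.85 ± 0.10 (adjusted p = 0.000333). Both were higher in each ΔHx library than in any WT library. Hyou1 stayed called with any 1 of the 6 libraries left out (adjusted p at most 0.00328), and so did Cap1 (at most 0.00413). Alox15 (chr11:70344152-70352031), a lipoxygenase of polyunsaturated fatty acids, measured 179, 50.1 and 31.9 in WT and 524, 408 and 453 in ΔHx, with WT replicate 1 above the other WT libraries and below all of ΔHx (difference 2.78 ± 0.46, adjusted p = 0.0117). Alox15 was not called without WT replicate 2, WT replicate 3, ΔHx replicate 1 or ΔHx replicate 3 (adjusted p up to 0.0852). A530016L24Rik (chr12:112489448-112499927) measured 0, 0 and 0 in WT and 78.9, 51.6 and 74.2 in ΔHx. It had no read in WT High cells and 237 reads in ΔHx, so with a floor of 3 reads per library it was at least 22.8-fold higher in ΔHx (fitted difference 6.09 ± 0.62, adjusted p = 5.01e-05). A530016L24Rik stayed called with any 1 of the 6 libraries left out (adjusted p at most 0.00119).

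**Figure D1:**
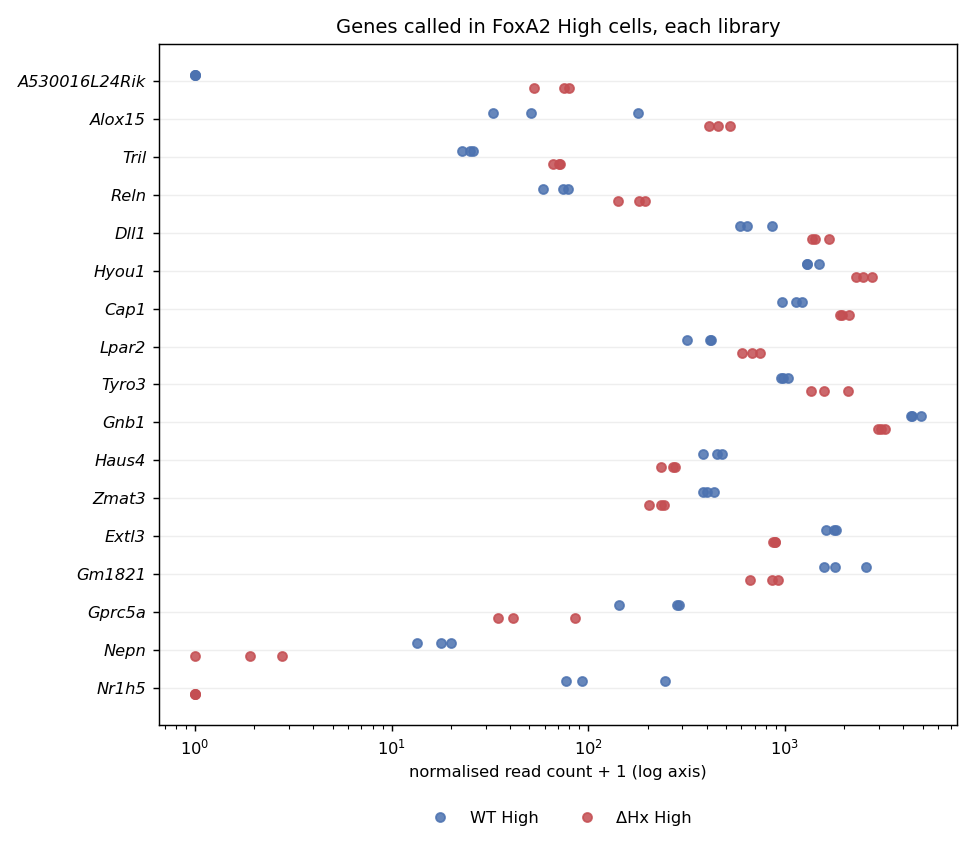
Normalised read count plus 1 (log axis) of 17 called genes in each High library, 3 WT (blue) and 3 ΔHx (red) points per gene, ordered by the log2 difference. In all 17 genes the genotypes do not overlap, and the points at 1 are libraries without a read (all 3 of WT for A530016L24Rik, all 3 of ΔHx for Nr1h5).

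The same genes were then followed in the cells with less FoxA2. Of the 18, 7 were also called in Mid, where 0.401% of tested genes were, and 9 in Neg, where 0.245% were. Those called in all 3 gates were Nr1h5, A530016L24Rik, Alox15, Cap1, Hyou1, Lpar2 and Gm1821, and Extl3 and Gnb1 were also called in Neg. The labels do not say whether the 3 gates of a genotype were sorted from the same pools. Nr1h5 had no read in ΔHx Mid cells (653, 151 and 153 in WT Mid). In Neg cells it was at 1.12, 1.87 and 4.13 with ΔHx, against 525, 139.9 and 256 in WT Neg. A530016L24Rik had no read in WT Mid, against 8.37, 19.5 and 28.5 in ΔHx Mid, and was at 1.23, 8.11 and 0.906 in WT Neg and 31.3, 32.7 and 52.6 in ΔHx Neg. Both thus differed in cells without detected tagRFP as well. In Neg cells Alox15 measured 62.8, 35.5 and 23.6 in WT and 583, 622 and 405 in ΔHx, a difference of 3.78 ± 0.46 beside 2.78 ± 0.46 in High (adjusted p of the High minus Neg effect = 0.998). Cap1 differed by 0.85 in High, 0.68 in Mid and 0.85 in Neg, and Lpar2 by 0.82, 0.80 and 0.88. Hyou1 differed by 0.89, 0.54 and 0.68 in the same order, and Gm1821 by -1.27, -1.17 and -1.16.

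Dll1, Tril, Reln, Tyro3, Nepn, Gprc5a, Zmat3 and Haus4 were among the 9 genes called in High but in neither other gate. Dll1 had a difference of 1.10 ± 0.15 in High, 0.49 ± 0.15 in Mid and 0.07 ± 0.15 in Neg, where it measured 2248, 1677 and 1822 in WT and 2188, 2092 and 1733 in ΔHx. Tril measured 96.1, 138 and 140.4 in WT and 133, 83.0 and 96.0 in ΔHx in Neg cells, so its WT High level was far below that of WT Neg and its ΔHx High level nearer to it. In Mid cells Nepn measured 39.7, 27.7 and 34.0 in WT and 32.6, 49.7 and 58.2 in ΔHx, with overlapping genotypes. Tyro3 had a difference of -0.04 ± 0.13 in Mid and 0.03 ± 0.13 in Neg. Tests of the difference itself called none of the 18 genes. The 18 were picked by their difference in the same High libraries, which favours small p among them with either tool. Against Mid, 11 of the 18 were at an unadjusted p under 0.05, and the lowest adjusted p was 0.166 (Nepn, effect in High minus Mid -3.71 ± 0.74). Against Neg, 8 were, and the lowest adjusted p was 0.488, shared by Dll1 (1.03 ± 0.21) and Tril (1.78 ± 0.36). DESeq2 on the recovered reads called 2 of the 18 against Mid, Nepn among them, and 2 against Neg, Dll1 and Tril. Over all tested genes limma called 2 differences between the High and Mid effects (0.0136%) and 0 between High and Neg (0%), with 902 and 463 genes at an unadjusted p under 0.05. DESeq2 called 21 higher and 7 lower effects in High than in Mid and 2 higher and 4 lower than in Neg, and edgeR called 1 higher and 0 lower than in Mid and 0 either way against Neg.

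**Figure D2:**
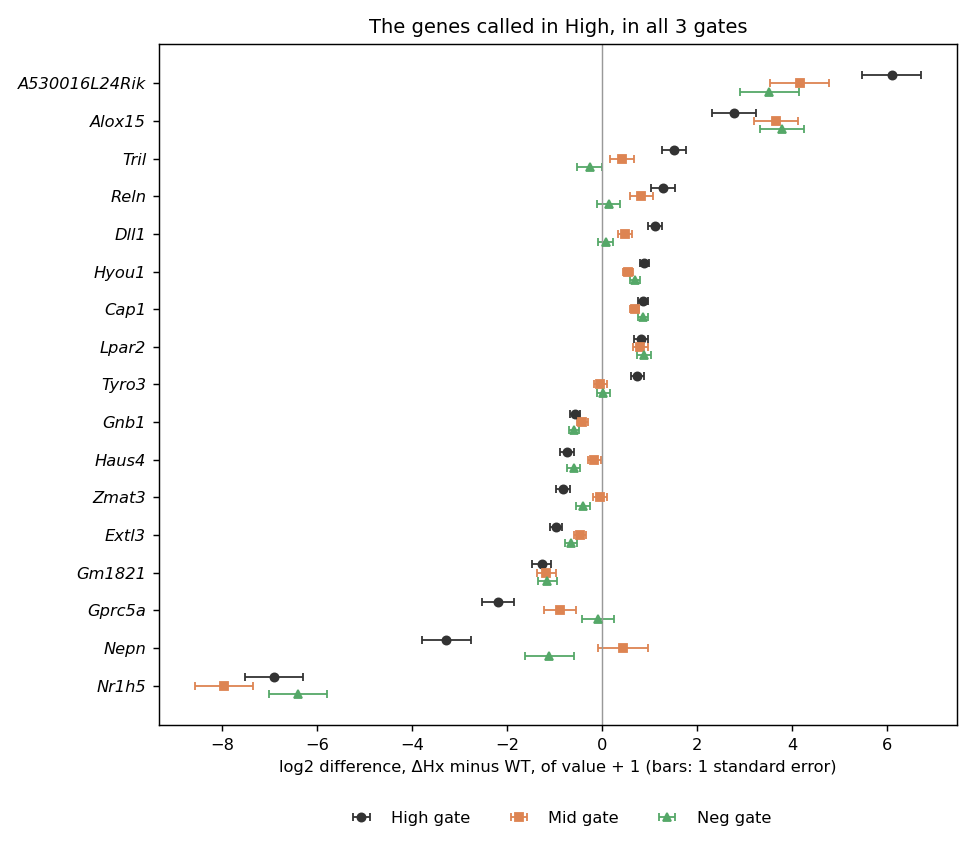
Log2 difference, ΔHx minus WT, of 17 genes called in High, in the High, Mid and Neg gates, with bars of 1 standard error from 3 against 3 libraries. Nr1h5, A530016L24Rik, Alox15, Cap1, Hyou1, Lpar2 and Gm1821 lie away from 0 in all 3 gates, whereas Tyro3 and Nepn have Mid values near or across 0.

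Node and notochord genes, whose markers were high in this gate, showed no called difference. Of 22 tested members 9 were higher and 13 lower in ΔHx, 0 rose, 0 fell and the median was -0.04; 1 had an unadjusted p under 0.05, and edgeR and DESeq2 also called 0. Shh, the ligand of the notochord, measured 2461, 1809 and 3893 in WT and 3517, 2753 and 2847 in ΔHx (95% interval of the log2 difference -1.08 to 1.53). Noto, the notochord homeobox factor, measured 2329, 1761 and 2896 in WT and 2558, 2014 and 1625 in ΔHx (interval -1.41 to 1.08), and T, the mesodermal T-box factor Brachyury, 15866, 10088 and 11319 in WT and 11514, 11811 and 12039 in ΔHx (interval -0.58 to 0.48). The BMP antagonist Chrd measured 7648, 4590.1 and 5438 in WT and 5431, 5328 and 6072 in ΔHx (interval -0.75 to 0.67). All 4 genes had overlapping genotypes. Nodal, the TGF-β ligand of streak and node, was evenly higher in ΔHx, at 1499, 1312 and 1318 in WT and 1635, 1633 and 1642 in ΔHx, a difference of 0.25 ± 0.20 (adjusted p = 0.795). The intervals use a spread shared by all 6 groups, which for Shh and Noto includes Neg libraries with few or no reads. The median of the list was -0.14 without WT replicate 2 and ΔHx replicate 3, with 15 of 22 members lower.

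The 29 tested motile cilia genes, which build the beating cilia of the node, had a median of -0.04, with 13 higher, 16 lower and 0 called by limma, edgeR or DESeq2, and none at an unadjusted p under 0.05. Foxj1, the factor that switches on motile cilia genes, measured 6367, 3824 and 5177 in WT and 4464, 4486 and 4645 in ΔHx (interval -1.13 to 0.84). The dynein gene Dnah11 measured 658, 489 and 446 in WT and 444, 403 and 333 in ΔHx, lower in each ΔHx library but at an adjusted p of 0.76. The 16 genes of the anterior mesendoderm and head organiser had a median of -0.09 and 0 calls with each of the 3 tools, and none had an unadjusted p under 0.05. The secreted Wnt and Nodal antagonist Cer1 measured 11348, 10040.2 and 12910.0 in WT and 9102, 8814 and 12351 in ΔHx (interval -0.65 to 0.27).

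Definitive endoderm genes held 1 call among 27 tested members, the fall of Nepn described above, with a median of -0.07. Sox17, the endoderm HMG-box factor, measured 1376, 1760.3 and 1610.4 in WT and 1428, 1309.5 and 1973 in ΔHx (interval -0.41 to 0.36), and the homeobox factor Hhex 478, 716 and 649.7 in WT and 531, 569.6 and 634 in ΔHx (interval -0.52 to 0.38). Trh, which encodes a hormone precursor, measured 5465, 4955 and 3509.8 in WT and 3726, 3746 and 3322 in ΔHx (difference -0.35 ± 0.16, adjusted p = 0.628), and the trypsin inhibitor Spink1 1452, 2983 and 1298 in WT and 961, 2061 and 612 in ΔHx (difference -0.74 ± 0.38, adjusted p = 0.656). The genotypes overlapped in all 4. The fall of Nepn was therefore not shared by the other endoderm genes of the list at this threshold.

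**Figure D3:**
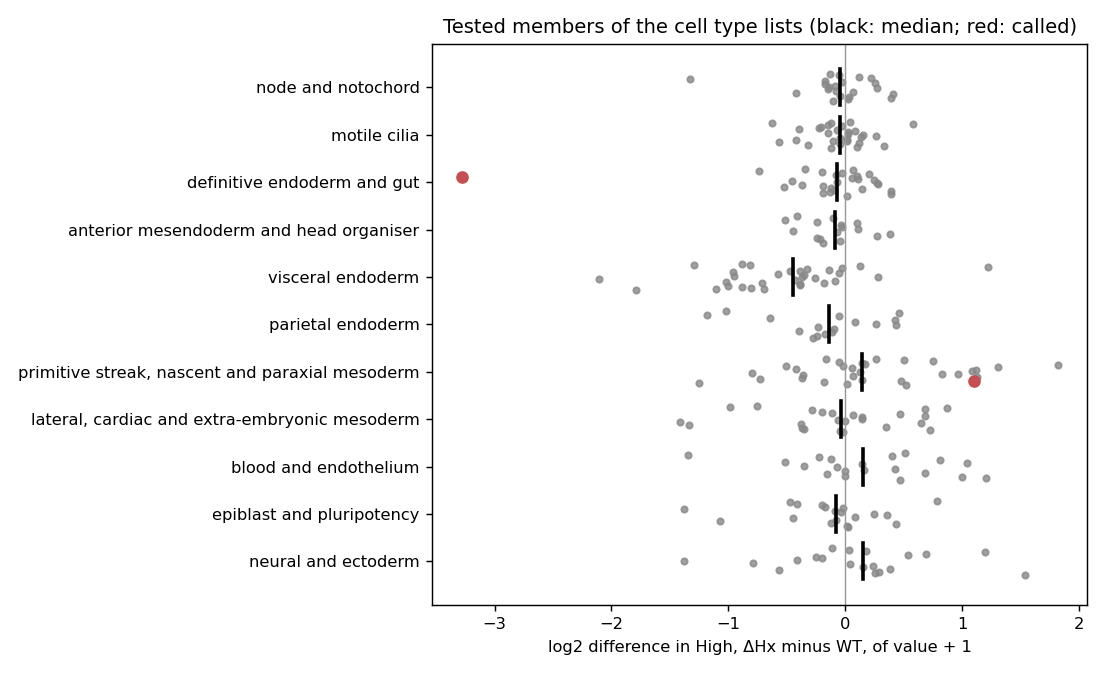
Log2 difference in High, ΔHx minus WT, of the tested members of 11 cell type lists, 1 point per gene, with the list's median as a black bar and called genes in red. The median of visceral endoderm is at -0.45, the other 10 medians lie within 0.15 of 0, and the called members are Nepn and Dll1.

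Visceral endoderm genes lay lower in ΔHx as a list, without a called member. Of 32 tested 29 were lower and 3 higher, and the median was -0.45 against 0.000211 for all genes. At an unadjusted p under 0.05, 8 were lower and 1 higher, beside 3.87% lower and 3.99% higher of all tested genes. Afp, the fetal serum protein, measured 627, 965 and 338 in WT and 254, 336 and 56.9 in ΔHx (difference -1.79 ± 0.47, adjusted p = 0.198). The iron carrier Trf measured 216, 214 and 183 in WT and 75.4, 139 and 53.6 in ΔHx (adjusted p = 0.142) and Mttp, which loads lipids onto apolipoproteins, 434, 693 and 449 in WT and 308, 329.6 and 181 in ΔHx (adjusted p = 0.15). These 3 genes did not overlap between genotypes. The apolipoprotein gene Apoa1 measured 969, 1706 and 634 in WT and 364, 844 and 338 in ΔHx and overlapped (difference -1.11 ± 0.36, adjusted p = 0.378). DESeq2 called falls of Trf and Mttp, and edgeR called 0 members. The summed level of the 32 genes was 20018, 29482 and 18766 in WT and 14658, 22023 and 13445 in ΔHx, so the genotypes overlapped, with WT replicate 2 highest and ΔHx replicate 3 lowest. Without those 2 libraries the median was -0.05, with 15 members higher and 17 lower. Since they are the WT library highest and the ΔHx library lowest for these genes, leaving them out must shrink the difference. The 16 parietal endoderm genes had a median of -0.14 with 0 calls by limma, edgeR and DESeq2 and 0 at an unadjusted p under 0.05; without the same libraries the median was 0.04.

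Genes of the primitive streak and of nascent and paraxial mesoderm lay the other way. Of 31 tested 20 were higher, 1 rose (Dll1) and the median was 0.14. At an unadjusted p under 0.05, 10 were higher and 1 lower, beside 3.99% higher and 3.87% lower of all tested genes. The presomitic bHLH factor Msgn1 measured 39.6, 28.2 and 27.5 in WT and 78.0, 111 and 56.9 in ΔHx (difference 1.31 ± 0.45, adjusted p = 0.429) and the somite homeobox factor Meox1 26.4, 30.9 and 26.6 in WT and 63.1, 67.0 and 52.0 in ΔHx (difference 1.09 ± 0.27, adjusted p = 0.167). The oscillating repressor Hes7 measured 97.1, 114 and 68.2 in WT and 175, 149 and 164 in ΔHx (adjusted p = 0.504), and Tbx6, a T-box factor of presomitic mesoderm, 385, 215 and 137 in WT and 340.2, 371 and 434 in ΔHx (adjusted p = 0.516). The apelin receptor Aplnr, on migrating mesoderm, measured 8525, 5722 and 10074 in WT and 12734, 11145 and 10249 in ΔHx (adjusted p = 0.549). All but Tbx6 were higher in each ΔHx library than in any WT library, as 6 of the 31 members were. Of all tested genes 5.72% were. The genes given here are all higher on average, whereas 11 of the 31 members were lower, the lowest at -1.25. Summed over the list, WT libraries held 31428, 22545 and 26846 and ΔHx libraries 31748, 30186 and 31471. WT replicate 1 was thus close to the ΔHx level. Without WT replicate 2 and ΔHx replicate 3 the median was 0.21, with 25 of 31 members higher. Most of these genes have their highest WT mean in another gate, 17 of the 31 in Mid, 11 in Neg and 3 in High. Dll1 averaged 696 in WT High, 2521 in WT Mid and 1916 in WT Neg, and Msgn1 31.8, 288 and 619.9. The part of cells from the other gates in the rise of Dll1 was not tested.

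**Figure D4:**
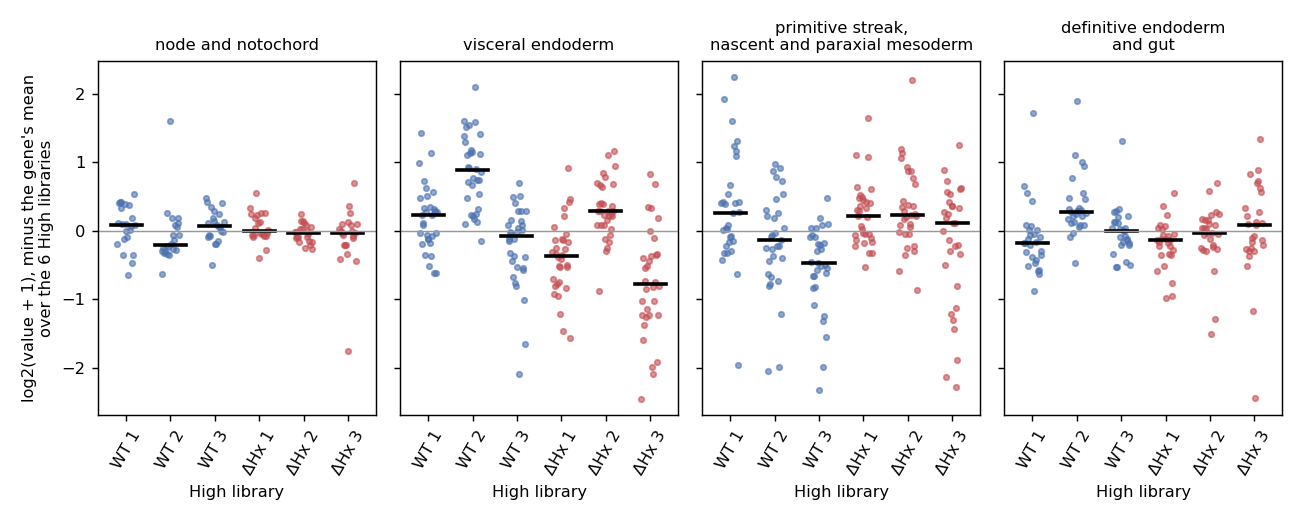
Members of 4 gene lists in each High library, as log2(value + 1) minus the gene's mean over the 6 libraries, with the library's median as a black bar. WT replicate 2 has the highest visceral endoderm median and ΔHx replicate 3 the lowest, and the streak and mesoderm medians of the 3 ΔHx libraries (0.11 to 0.24) are above those of WT replicates 2 and 3 and below that of WT replicate 1 (0.27). The node medians run from -0.20 (WT replicate 2) to 0.09 (WT replicate 1).

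The lists for other cell types held no called gene. Lateral, cardiac and extra-embryonic mesoderm (24 tested, median -0.03), blood and endothelium (20, median 0.15), epiblast (19, median -0.08) and neural genes (19, median 0.15) had 0 calls by limma, edgeR or DESeq2 and 1, 1, 1 and 2 members at an unadjusted p under 0.05. These medians were, without WT replicate 2 and ΔHx replicate 3, 0.32 (15 of 24 members higher), 0.17, -0.07 and 0.05. For the lateral, cardiac and extra-embryonic list these are the WT library of highest sum (2477) and the ΔHx library of lowest sum (2381). Leaving them out must therefore raise the difference of the sums. Pou5f1, the pluripotency factor Oct4, ranged from 719 to 846 over the 6 libraries. The neural markers Sox1 and Pax6 had 2 and 12 reads over all 6 libraries, and the lateral mesoderm factor Hand1 reached at most 21.3.

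Around Dll1, other Notch pathway genes did not follow it as a group. Of 37 tested, 1 rose, 16 were higher and 21 lower, and the median was -0.04. At an unadjusted p under 0.05, 3 were higher (Dll1, Dll3 and Hes7, which is given above) and 2 lower. Of all tested genes 3.99% were higher and 3.87% lower at that p. In 6 members every ΔHx library was above WT and in 4 every one was below, beside 5.72% and 5.2% of all tested genes. The related ligand Dll3 measured 833, 509.7 and 758 in WT and 991, 912 and 962 in ΔHx, higher in each ΔHx library (difference 0.48 ± 0.19, adjusted p = 0.549). Heyl, a Notch-induced repressor, measured 20.4, 18.2 and 16.8 in WT and 2.63, 0.906 and 0 in ΔHx: 56 reads in WT against 4 in ΔHx, a difference of -3.35 ± 0.82 with a large spread in the fit (adjusted p = 0.154). DESeq2 called Heyl as a fall, and edgeR did not. Rbpj, the DNA-binding partner of Notch, measured 269, 321 and 259.7 in WT and 244, 254 and 145 in ΔHx (adjusted p = 0.671).

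The Hedgehog pathway (18 tested, median 0.10), the Nodal and BMP list (31, median -0.06) and the Wnt list (25, median -0.07) had 0 calls by limma, edgeR or DESeq2. At an unadjusted p under 0.05 they held 1, 3 and 4 members, beside 3.99% higher and 3.87% lower of all tested genes. In the Hedgehog list the lowest p was that of the co-receptor Boc, at 206, 124 and 129 in WT and 86.8, 102 and 72.6 in ΔHx (difference -0.78 ± 0.26, adjusted p = 0.42). In the Wnt list the R-spondin receptor Lgr5 measured 423, 379 and 503 in WT and 243, 208 and 273 in ΔHx, lower in each ΔHx library (difference -0.85 ± 0.29, adjusted p = 0.42), and the ligand Wnt8a 28.8, 16.4 and 26.6 in WT and 35.1, 38.0 and 51.1 in ΔHx (difference 0.79 ± 0.27, adjusted p = 0.441). The inhibitory Smad genes Smad6 and Smad7 were lower in ΔHx on average and lowest in ΔHx replicate 3, at 8.25 and 6.60, with overlapping genotypes.

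In each housekeeping list that held a called gene, that gene stood alone. Among 25 genes of the unfolded protein response and chaperones of the endoplasmic reticulum Hyou1 rose, 0 fell and the median was 0.01. Herpud1, a stress-induced membrane protein of that compartment, measured 255, 320.4 and 463 in WT and 447, 405 and 497 in ΔHx (adjusted p = 0.562). Among 28 genes of heparan sulfate synthesis Extl3 fell, 0 rose and the median was 0.02. The sulfotransferase Hs2st1 measured 378, 337 and 191 in WT and 186, 196 and 114 in ΔHx (difference -0.85 ± 0.25, adjusted p = 0.321), and the extracellular sulfatase Sulf1 4041, 3297 and 5179.6 in WT and 5835, 5312 and 5459 in ΔHx (difference 0.43 ± 0.19, adjusted p = 0.607). Among 25 actin genes Cap1 rose, 0 fell and the median was 0.03. Among 18 apoptosis and p53 target genes Zmat3 fell, 0 rose and the median was -0.02. The p53 targets Eda2r and Bbc3 went opposite ways. Eda2r, which encodes a receptor, measured 19.2, 11.8 and 12.4 in WT and 28.9, 37.1 and 37.1 in ΔHx (adjusted p = 0.256). Bbc3, which promotes cell death, measured 62.3, 49.1 and 59.4 in WT and 46.5, 31.7 and 31.3 in ΔHx (adjusted p = 0.61).

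Of 22 cholesterol synthesis genes 16 were lower, the median was -0.12 and 0 were called by limma, edgeR or DESeq2, with 3 lower at an unadjusted p under 0.05. Leaving out WT replicate 2 and ΔHx replicate 3, the median was -0.33 and all 22 were lower, 1 of them at an unadjusted p under 0.05. The list summed to 15617, 15317.5 and 25209 in WT and 15394, 15115 and 19869 in ΔHx, so the genotypes overlapped. The libraries left out are the lowest of WT and the highest of ΔHx in this sum. Leaving them out must therefore deepen the difference of the sums. The sterol regulator Insig1 measured 352, 299 and 448 in WT and 181, 204 and 230.1 in ΔHx and the desaturase Sc5d 315, 364 and 443 in WT and 265, 234 and 219 in ΔHx, both lower in each ΔHx library. Of 30 S phase genes 23 were higher (median 0.09, 4 at an unadjusted p under 0.05), and of 30 mitosis genes 20 were lower (median -0.10, 2 at an unadjusted p under 0.05), with 0 calls by the 3 tools. Without the same 2 libraries the mitosis median was -0.23, with 27 of 30 lower and 8 lower at an unadjusted p under 0.05. Of all 14711 tested genes 375 were higher and 264 lower at that p without these libraries. The mitosis list summed to 60986, 60955 and 75424 in ΔHx, so leaving out ΔHx replicate 3 must deepen the fall. The S phase median was 0.07 without the 2 libraries. Cyclin E2 (Ccne2) measured 192, 269 and 279 in WT and 340.2, 296 and 374 in ΔHx and the chromosome passenger Cdca8 2309, 1983 and 2351 in WT and 1825, 1851 and 1893 in ΔHx, neither overlapping. Of 26 glycolysis and hypoxia genes 21 were higher (median 0.10, 1 at an unadjusted p under 0.05, 0 called by the 3 tools). The hypoxia-induced hydroxylase Egln3 measured 44.4, 57.3 and 37.2 in WT and 104, 67.0 and 81.6 in ΔHx (adjusted p = 0.227).

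Larger differences than those of most called genes were also seen in genes that did not pass. Among those with non-overlapping libraries, an unadjusted p under 0.01 and a mean of 50 or more in 1 genotype, the deepest fall was that of Mtfr2, a regulator of mitochondrial fission, at 69.5, 113 and 134 in WT and 12.3, 29.9 and 18.1 in ΔHx (difference -2.37 ± 0.47, adjusted p = 0.0538). Mtfr2 differed by -1.25 in Mid and -2.41 in Neg, and was called as a fall by DESeq2. Next came the fibrinogen gene Fgb, at 45.6, 156 and 58.5 in WT and 12.3, 43.5 and 8.25 in ΔHx (difference -2.10 ± 0.69, adjusted p = 0.402), a visceral endoderm gene with its highest value in WT replicate 2. Rab6b, a small GTPase of Golgi traffic, measured 209.8, 103 and 111 in WT and 67.5, 46.2 and 17.3 in ΔHx (difference -1.79 ± 0.39, adjusted p = 0.0966), and Ttc39c 51.5, 61.0 and 46.1 in WT and 22.8, 15.4 and 7.42 in ΔHx (difference -1.85 ± 0.48, adjusted p = 0.195). The adenosine receptor Adora2b, the receptor Lrp3 and the peroxidase Gpx2 had differences of -1.69, -1.38 and -1.37. All 3 were lowest in ΔHx replicate 3, at 4.95, 12.4 and 164.

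On the other side, the ubiquitin ligase gene March3 measured 7.19, 33.7 and 9.75 in WT and 123, 95.1 and 71.7 in ΔHx (difference 2.72 ± 0.83, adjusted p = 0.35) and the haem-binding Hebp1 21.6, 8.19 and 28.4 in WT and 71.9, 63.4 and 54.4 in ΔHx (difference 1.81 ± 0.38, adjusted p = 0.0779). Hebp1 differed in the same direction in Mid (1.38) and Neg (2.05), as did the cystine carrier Slc7a11 (1.59 in High, 1.48 in Mid and 1.51 in Neg). Tgfb2, a TGF-β ligand, measured 114, 174 and 287 in WT and 514, 442 and 412 in ΔHx (difference 1.34 ± 0.31, adjusted p = 0.136), and Pdgfrb, a receptor of mesenchymal cells, 19.2, 83.7 and 94.8 in WT and 196, 122 and 238 in ΔHx (difference 1.71 ± 0.51, adjusted p = 0.321). The retinoic acid hydroxylase Cyp26c1 measured 14.4, 41.9 and 38.1 in WT and 74.5, 78.8 and 89.9 in ΔHx (difference 1.47 ± 0.42, adjusted p = 0.294), and Rassf6 31.2, 33.7 and 25.7 in WT and 93.0, 91.5 and 98.1 in ΔHx (difference 1.62 ± 0.44, adjusted p = 0.245). Eno1b, a near-identical copy of the enolase gene Eno1, measured 714, 380.5 and 208 in WT and 1193, 1194 and 1199 in ΔHx. Reads that aligned to both genes were not counted, so the levels of both are uncertain. Eno1 itself measured 53.9, 42.8 and 57.6 in WT and 79.8, 58.0 and 84.9 in ΔHx.

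Genes were also sorted by their level in WT Mid against WT Neg cells, 2 groups that share no library with the High comparison. Of 1530 genes called and at least 2-fold higher in WT Mid than in WT Neg, 0 rose and 2 fell in ΔHx High cells (Nepn and Gprc5a), and the median difference in High was -0.13. In this class 6.93% were lower and 1.5% higher at an unadjusted p under 0.05, beside 3.87% and 3.99% of all tested genes. Of 614 genes called and at least 2-fold lower in WT Mid, 2 rose (Alox15 and A530016L24Rik), 0 fell, the median was 0.05, and 7.33% were higher and 3.26% lower at that p. The other 12567 genes had a median of 0.0089 and shares of 4.13% higher and 3.53% lower. WT Mid cells hold the visceral endoderm genes at their highest level (Cubn mean 8507 in WT Mid against 250.2 in WT Neg). Without WT replicate 2 and ΔHx replicate 3 the median of the first class was -0.03, with 1.76% lower and 2.22% higher at that p. The other 12567 genes then had 1.79% lower and 2.43% higher. In the class lower in WT Mid the median was then 0.09, with 5.7% higher and 1.95% lower. WT replicate 2 and ΔHx replicate 3 are again the WT library highest and the ΔHx library lowest for visceral endoderm genes.

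**Figure D5:**
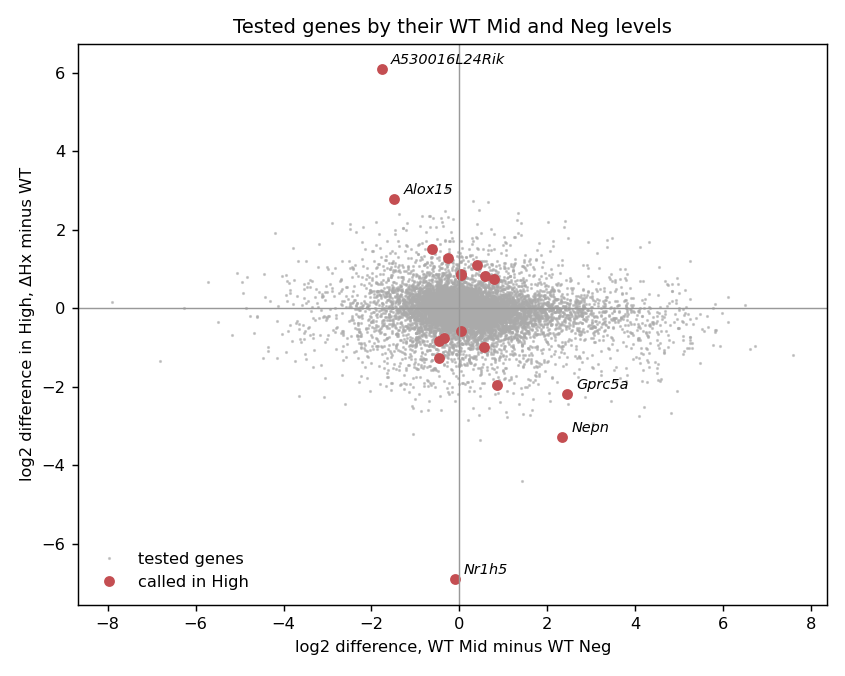
Log2 difference in High, ΔHx minus WT, against the log2 difference of WT Mid minus WT Neg, for the 14711 tested genes (grey) and the 18 called in High (red). Nepn and Gprc5a lie to the right, among genes higher in WT Mid, and Alox15 and A530016L24Rik to the left.

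The 18 called genes lay on 12 chromosomes. Only Tyro3 shares chromosome 2 with Foxa2 (chr2:148042877-148046969 on the minus strand), 28.2 Mb away. Of 162 tested genes within 10 Mb of Foxa2, 0 were called by limma, edgeR or DESeq2, and 8 had an unadjusted p under 0.05. Over all tested genes limma called 0.122%, and 3.99% were higher and 3.87% lower at that p.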

How the data were processed

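The authors deposited 1 table of signal for 18 libraries: reads per gene over a library-wide size factor. From the submitters' processing notes come the names DESeq, DESeq2, HTSeq (0.6.1) and STAR (2.5.2a), with mm10 as the mouse build, without settings; the sources used here do not give the counting annotation. Libraries were read from 1 end for 75 bases, per the labels' protocols, and SMART-Seq2, which does not mark strand, made them, so sense and antisense reads of overlapping genes are not separated. Of what was counted in the High libraries, 37.7% to 38.9% aligned to several places, 9.36% to 11.7% met no feature and 0.561% to 0.658% met more than 1; these counters stayed out. Rn45s, a ribosomal RNA precursor, took 27.9% to 37.9% of the reads in genes. All 441054 values were whole multiples of 1 read (within 1e-06 reads; 1 read was worth 0.825 to 1.20 in High).

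Values plus 1 were taken to log2 and fitted in limma 3.58.1 (R 4.3.3), with 6 group means over 18 libraries and a variance trend. Genes had to reach a value of 10 in 3 or more libraries. The groups share 1 spread per gene. Tests were two-sided with Benjamini-Hochberg adjustment over 14711 genes. edgeR 4.0.16 and DESeq2 1.42.0 on the recovered reads were alternatives; edgeR called 8 rises and 8 falls. Steps were tested on simulated data. Positions are from GENCODE vM21 (GRCm38), where all 18 called genes had 1 position, and promoters from RefSeq (GRCm38.p6), where 10 of the 18 had a window.

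Named genes were the 3 FoxA genes, all called genes, 3 members per list of lowest p whose higher genotype averaged 20 or more, 9 marker genes, the 8 largest uncalled differences in each direction (unadjusted p under 0.01, mean of 50 or more, no overlap, no clone names), and genes whose effect differed between gates; Aplnr, Tbx6, Rbpj, Heyl, Apoa1 and the genes in the last part of the closing section were named after their values were seen. The members, 26 lists and alternatives were chosen with earlier results of these data known, and 7 further lists and 2 alternatives (without WT replicate 2 and ΔHx replicate 3; the refiltered High libraries alone) after seeing the data. Lists were counted, not tested. A few genes, 1 of the 18 called among them, enter the counts but are not reported here.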

Additional observations from a re-analysis of the deposited data

Results flagged for a closer look

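The genotype effect differed between High and Mid cells in 2 genes. Both differed more between genotypes in Mid than in High. For Nid1, which encodes the basement membrane linker nidogen, the effect in High minus that in Mid was 3.986 on the log2 scale (SE 0.64, adjusted p = 0.0422). Nid1 measured 245, 426 and 317 in WT and 339, 417 and 578 in ΔHx in High cells, overlapping between genotypes, and 16229, 2245 and 3437 in WT and 303, 496 and 512 in ΔHx in Mid cells. Nid1 is also on the parietal endoderm list, of whose 16 members 9 fell and 0 rose in Mid (median -2.02, against -0.14 in High). In Mid cells their sum was 286200, 49975 and 75899 for WT, against 25265, 24336 and 29950.4 for ΔHx, with WT Mid replicate 1 apart from the rest; their part in the Nid1 difference was not tested. For Slc6a2, the noradrenaline transporter, the difference of effects was 7.089 (SE 1.07, adjusted p = 0.0359). In High cells it measured 2.40, 0.910 and 0 in WT and 1.75, 1.81 and 0 in ΔHx, with at most 2 reads per library, and in Mid cells 482, 165 and 160.4 in WT and 1.86, 0 and 1.14 in ΔHx. Neither was called without WT replicate 2, WT replicate 3, ΔHx replicate 1 or ΔHx replicate 2, and 1 gene was called without ΔHx replicate 3.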

How the results depend on the processing

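The count of rises in High (9) and falls (9) moved most with the model. DESeq2 called 37 and 47 and array weights 48 and 48, and both kept all 18 calls; the 6 High libraries alone gave 1 and 2, or 4 and 3 when refiltered, and edgeR on these 6 gave 4 and 3. Without WT replicate 2 and ΔHx replicate 3 the counts were 4 and 2. Pseudocounts, TMM, quantile normalisation, robust variances, other filters and equal totals without Rn45s gave 8 to 13 rises and 8 to 13 falls. Leaving out 1 library gave 4 to 13 rises and 3 to 12 falls. Nr1h5, Extl3 and A530016L24Rik were called in every alternative run, and Cap1, Hyou1 and Dll1 in every fit that left out 1 library.

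The replicate block gave 12 rises and 13 falls, with 16 of the 18 calls, and 1 larger effect in High than in Mid. Deviations of same-numbered WT and ΔHx High libraries correlated at -0.049, 0.082 and 0.00997 across 14711 genes, and not every library correlated best with its own number, so the numbers were not taken as pairs.

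Effects higher in High than in Mid (2 genes) numbered 0 with a pseudocount of 0.5, a filter at 50 and without the 2 libraries, 1 with no filter, robust variances and edgeR, 21 with DESeq2, and 0 to 2 when 1 library was left out. Effects lower in High than in Mid (0) numbered 1 with array weights and 7 with DESeq2. For High against Neg (0 in both directions) DESeq2 gave 2 higher and 4 lower, and leaving out 1 library gave 0 to 1 higher.

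The sign turned in these genes, which were not called. With array weights Noto was at 0.14, T at 0.049, Foxj1 at 0.011 and Chrd at 0.059. The ranges on leaving out 1 library, or WT replicate 2 and ΔHx replicate 3 together, were -0.35 to 0.0035 for Noto, -0.20 to 0.14 for T, -0.36 to 0.026 for Foxj1, -0.26 to 0.16 for Chrd, -0.24 to 0.048 for Hhex, -0.035 to 0.52 for Shh, -0.20 to 0.092 for Sox17, -0.0045 to 0.35 for Foxa2, -0.33 to 0.13 for Foxa3, -1.21 to 0.036 for Spink1, -0.29 to 0.017 for Edem1 and -0.36 to 0.59 for Slc6a2. Without the 2 libraries Foxa2 was at -0.0045, Foxa3 at 0.13, Spink1 at 0.036 and Edem1 at 0.017. The causes were not tested. Depth limits genes without a read in 1 genotype to a bound at 3 reads per library.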

Other observations

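Genes of retinoic acid synthesis, breakdown and reception, a list added after values were seen, lay higher in ΔHx High cells without a called member (limma, edgeR and DESeq2). Of 14 tested 10 were higher, the median was 0.31, and 3 had an unadjusted p under 0.05, all higher. The hydroxylase Cyp26a1, which breaks down retinoic acid, measured 1451, 3027 and 2769 in WT and 3529, 3808 and 4931 in ΔHx (difference 0.82 ± 0.22, adjusted p = 0.252). Aldh1a2, which makes retinoic acid, measured 647, 593 and 409 in WT and 1333, 1093 and 940.1 in ΔHx (difference 1.04 ± 0.33, adjusted p = 0.368). Both were higher in each ΔHx library, as was Cyp26c1. The sum over the 14 genes was 6554, 7561 and 7096 in WT and 9259, 9446 and 9976 in ΔHx, without overlap. Cyp26a1 and Aldh1a2 carried most of it: the other 12 genes summed to 4456, 3941 and 3917 for WT and to 4397, 4544 and 4104 for ΔHx, which overlapped. The median was 0.37 without WT replicate 2 and ΔHx replicate 3, with 12 of 14 higher. The anterior Hox gene Hoxb1 measured 115, 128 and 97.5 in WT and 259.6, 202 and 285 in ΔHx (difference 1.12 ± 0.24, adjusted p = 0.0934). DESeq2 called it as a rise. Other Hox genes did not share this as a group: of 22 tested, in a list also added after values were seen, 10 were higher and 12 lower. At an unadjusted p under 0.05, 2 of the 22 were higher and 0 lower.

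Of 22 FGF genes 0 were called by limma, edgeR or DESeq2 and the median was -0.02. At an unadjusted p under 0.05 were 6, 4 higher and 2 lower, beside 3.99% higher and 3.87% lower of all tested genes. The streak ligands Fgf15 and Fgf3 measured 50.4, 4.55 and 4.43 in WT and 42.1, 38.0 and 63.5 in ΔHx and 32.4, 4.55 and 12.4 in WT and 33.3, 35.3 and 29.7 in ΔHx; in both, WT replicate 1 was at the ΔHx level. Hspa8, the constitutive cytosolic chaperone, measured 20535, 20992 and 22681 in WT and 15839.8, 15922 and 17691 in ΔHx (difference -0.38 ± 0.08, adjusted p = 0.0761), and DESeq2 called it as a fall; limma called it as a fall in Mid (adjusted p = 0.016) and in Neg (adjusted p = 0.0102). Among 77 ribosomal protein genes (median -0.03) Rpl29 measured 1712, 1799 and 1968 in WT and 987, 894 and 1364 in ΔHx (difference -0.78 ± 0.17, adjusted p = 0.0779) and fell in Mid (adjusted p = 0.00452) and Neg (adjusted p = 0.00396). Among 83 respiratory chain genes (median -0.04) Cox7b measured 2414, 2351 and 1989.8 in WT and 2952, 2864 and 3837 in ΔHx (difference 0.51 ± 0.10, adjusted p = 0.0761). Without WT replicate 2 and ΔHx replicate 3 the medians of these 2 lists were 0.06 and 0.04.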
